A study of Homo sapiens with 26 samples.

Results

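The genes described here are the 9 neighbours of MYCN on the short arm of human chromosome 2 that were looked up by symbol in the count tables, namely DDX1, NBAS, MYCNOS, FAM49A, TRIB2, LPIN1, VSNL1, SMC6 and GEN1. They were chosen by position and symbol from 26485 genes in the tables, all 9 were found, and all 9 passed the filter on low counts in cell culture and in the xenografts. The question was whether MYCN RNA rose alone or together with the genes beside it. All libraries came from KELLY, an established human neuroblastoma line in which MYCN is amplified, transduced with a doxycycline-inducible vector. The vector was empty (EV) or carried a short hairpin RNA against RUNX1T1, a transcriptional co-repressor, and the hairpin lines are named sh4 and shAMB. Each line was grown for 72 h with doxycycline or with DMSO, in 3 replicates per group, so that the EV line carries the vector and receives doxycycline but holds no hairpin. Another 8 libraries were made from KELLY tumours grown under the skin of immunodeficient NSG mice, female and 5 to 6 weeks old at engraftment per the methods. Of these, 4 are labelled WT on control food and 4 RUNX1T1 KO on doxycycline food. The methods describe an inducible hairpin for the tumours and no knock-out, there was no EV tumour, and the time on the food is not in the labels. Nothing in the labels says that replicates came from separate cultures, so that p-values measure the spread between these libraries, which may be technical.

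MYCN encodes a transcription factor of the MYC family, and its amplification is the defining lesion of a high-risk class of neuroblastoma. Amplified DNA often extends past MYCN itself, and DDX1 and NBAS are the neighbours best known to be amplified along with it. A gene within one amplified stretch can share copy number with MYCN and still be driven by its own promoter. DNA copy number was not measured in these files, so that a level of RNA cannot be turned into a level per gene copy.

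In the GRCh38 assembly (hg38), MYCN lies on the plus strand at chr2:15940550-15947004. On its telomeric side lie DDX1, an RNA helicase gene, at chr2:15591868-15631101, NBAS, whose product works in transport from Golgi to endoplasmic reticulum, at chr2:14778909-15561334, TRIB2, a pseudokinase gene, at chr2:12716936-12742734, and LPIN1, which encodes a phosphatidate phosphatase of lipid synthesis, at chr2:11677544-11827409. On the centromeric side lie FAM49A (now CYRIA), whose product binds the GTPase RAC1, at chr2:16549459-16665834, VSNL1, a neuronal calcium sensor gene, at chr2:17539972-17657018, SMC6, a subunit gene of the SMC5/6 genome maintenance complex, at chr2:17663812-17753810, and GEN1, which encodes an endonuclease that cuts Holliday junctions, at chr2:17753278-17788946. The gaps to MYCN run from 0.309 Mb for DDX1 and 0.379 Mb for NBAS through 0.602 Mb for FAM49A to 3.20 Mb for TRIB2 and 4.11 Mb for LPIN1. VSNL1, SMC6 and GEN1 lie 1.59, 1.72 and 1.81 Mb away. MYCNOS is transcribed from the minus strand at chr2:15936265-15942433 and overlaps MYCN itself.

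The stretch that is exonic in both MYCN and MYCNOS in the GENCODE annotation of hg38 is shown because reads from it can belong to either gene. It covers 98 bases at chr2:15942152-15942249, written on the plus strand, and all of them are coding in MYCN.
MYCN and MYCNOS shared exon: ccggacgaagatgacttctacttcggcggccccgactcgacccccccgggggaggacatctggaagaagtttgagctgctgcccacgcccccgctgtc
The 98 bases are 3.56% of the exon bases of MYCN. SMC6 and GEN1 stand head to head on opposite strands and share 107 exon bases in the same way. DDX1, NBAS, TRIB2 and VSNL1 have no antisense exon overlap, while LPIN1 and FAM49A share 115 and 84 exon bases with unnamed antisense genes. The libraries were made with a stranded kit, but whether the counting used the strand is not stated. The processing notes thus do not say whether reads of MYCN and MYCNOS, or of SMC6 and GEN1, were told apart by strand within these stretches. Fractional counts given below show that some reads were divided between MYCN and MYCNOS in part of the culture libraries.

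The 250 bases before the start of MYCN, the gene that rose, and of DDX1, its nearest coding neighbour on the telomeric side, are given for comparison from the RefSeq promoter table (GRCh38.p14). They lie at chr2:15940300-15940549 and chr2:15591618-15591867, both on the plus strand. Capitals mark matches to the E2F-type letters TTTGGCGC or TTTCGCGC, searched on both strands.
MYCN: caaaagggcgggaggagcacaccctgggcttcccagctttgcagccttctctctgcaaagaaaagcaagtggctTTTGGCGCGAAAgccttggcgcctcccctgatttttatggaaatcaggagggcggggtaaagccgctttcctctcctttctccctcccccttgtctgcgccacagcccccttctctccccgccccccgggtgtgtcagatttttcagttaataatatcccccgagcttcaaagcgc
DDX1: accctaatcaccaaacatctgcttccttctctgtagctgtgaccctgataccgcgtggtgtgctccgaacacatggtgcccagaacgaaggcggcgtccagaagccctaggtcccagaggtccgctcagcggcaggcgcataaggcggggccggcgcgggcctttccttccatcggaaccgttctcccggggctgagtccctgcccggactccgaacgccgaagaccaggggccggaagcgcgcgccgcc
The MYCN window held 2 overlapping matches, one on each strand, the SMC6 window held 1, and the windows found for the other members held none. Of 35116 promoter windows of the same length, 0.968% held a match. The E-box CACGTG, the letters that MYC family proteins bind, was in 6.34% of the windows and in none of those of MYCN or of the members found. The E2F letters were chosen after the MYCN sequence had been seen, and a match is a run of letters and not evidence of binding.

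The culture libraries held 35115915 to 54736733 expected counts, and the tumour libraries 47346063 to 62378060. MYCN had at least 79261 counts in every library, and the lowest count of any member was 324, for VSNL1. RNA of RUNX1T1, the targeted gene, did not separate the groups by label in the hairpin lines or the tumours. In culture it stood at 36.5, 37.8 and 38.6 CPM (counts scaled to library size, with TMM factors between libraries) in EV with doxycycline and at 44.1, 39.3 and 42.4 CPM with DMSO. It was 31.2, 33.9 and 30.1 CPM in sh4 with doxycycline against 34.7, 33.3 and 35.01 CPM with DMSO, and 41.3, 44.1 and 42.2 CPM in shAMB with doxycycline against 40.8, 42.0 and 39.9 CPM with DMSO. In the tumours it was 24.3, 35.2, 27.3 and 33.9 CPM in the KO group and 34.3, 43.1, 30.0 and 34.4 CPM in control. The log2 fold changes of RUNX1T1 were -0.16 for EV, -0.11 for sh4, 0.06 for shAMB and -0.23 for the tumours, with adjusted p of 0.672, 0.117, 0.378 and 0.229. In EV the doxycycline libraries lay below the DMSO libraries without overlap, and in sh4, shAMB and the tumours the groups overlapped. Against the EV effect, the shAMB effect on RUNX1T1 was higher by 0.21 (adjusted p = 0.0353). All directions below therefore rest on the labels. RUNX1T1 RNA also started lower in sh4 than in EV under DMSO (log2 difference -0.29, adjusted p = 0.0144). The study reports less RUNX1T1 protein in KELLY cells after induction of hairpins, and loss of RUNX1T1 staining in KELLY tumours. It also reports more MYCN protein after silencing of RUNX1T1, and no lower MYCN level in KELLY tumours. From the protein it reads an effect of RUNX1T1 on MYCN activity, and none on MYCN transcription or stability. Protein is not part of the data described here.

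MYCN RNA rose with doxycycline in both hairpin lines and was higher in the KO tumours, and among the 9 neighbours MYCNOS moved with it in all 3 settings. DDX1 and NBAS, the coding neighbours on the telomeric side, did not pass the test as fitted in any of the 4 comparisons, and FAM49A, on the centromeric side, fell most in shAMB and the KO tumours, while its smaller values in sh4 and EV, of -0.24 and -0.22 on the log2 scale, were close to each other. Calls are at an adjusted p under 0.05 over all genes tested. In EV, 0 of the 9 members passed, with 0.0939% of all tested genes called. There, 1 member had an unadjusted p under 0.05, as had 879 of all 14905 tested genes. DESeq2 and limma voom also called 0 members in EV, with 20 and 13 of all genes called. In sh4, 4 of 9 passed (2 higher, 2 lower) with 40.9% of all genes called. In shAMB 6 of 9 passed (3 higher, 3 lower) with 66.0% of all genes called, and in the xenografts 5 of 9 passed (1 higher, 4 lower) with 41.1% called. These shares of the 9 are close to or little above those over all genes, and the median log2 fold change over the 9 was 0.02 for sh4, 0.00 for shAMB and -0.16 for the tumours, against 0.00, 0.10 and 0.02 over all tested genes. The share of members called is thus no result about the neighbourhood, and the genes are described one by one.

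**Figure D1:**
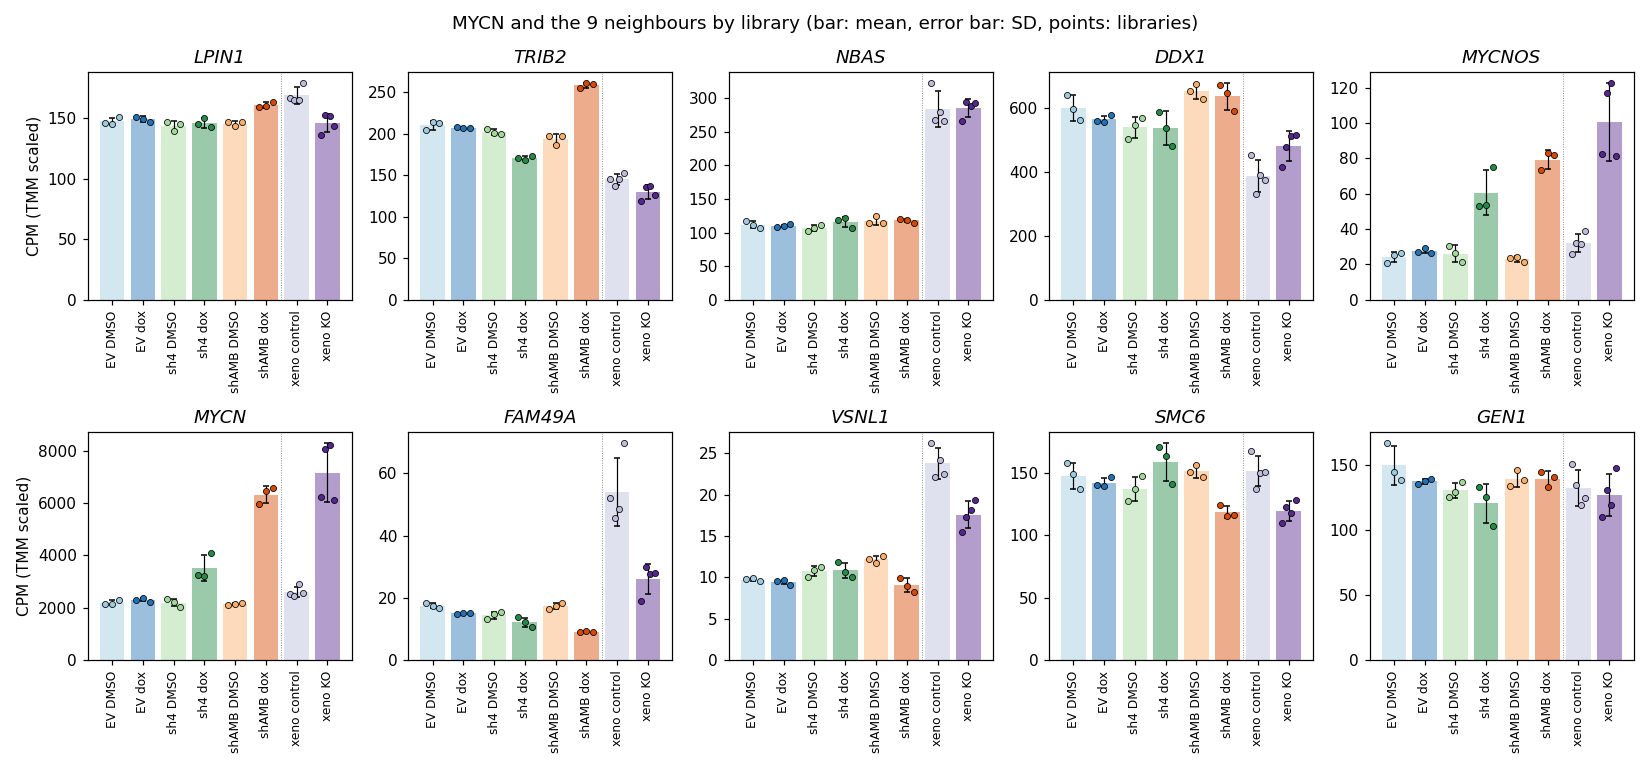
CPM of MYCN and the 9 neighbours in every library. Bars are group means, error bars the SD over 3 culture or 4 tumour libraries, points the libraries, and the dotted line parts the separately normalized culture and tumour tables. MYCN and MYCNOS rise in the sh4, shAMB and KO bars, DDX1, NBAS and GEN1 overlap between DMSO and doxycycline in each line, and FAM49A drops from 17.3 to 9.14 CPM in shAMB.

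MYCN served as the reference. It was at 2146, 2138 and 2298 CPM in EV with DMSO and at 2310, 2359 and 2234 CPM in EV with doxycycline. In sh4 it went from 2323, 2219 and 2036 CPM to 3246, 3202 and 4090 CPM, and in shAMB from 2085, 2130 and 2170 CPM to 5944, 6442 and 6561 CPM. The EV groups overlapped, and the groups of both hairpin lines did not. The fitted change was 1.60-fold in sh4 (log2 0.68 ± 0.08 SE, adjusted p = 4.6e-06), 2.97-fold in shAMB (log2 1.57 ± 0.08, adjusted p = 1.8e-10) and 1.05-fold in EV (adjusted p = 0.701). The tumours held 2508, 2433, 2887 and 2552 CPM in control and 6242, 8064, 8211 and 6112 CPM in KO, a 2.76-fold difference (log2 1.46 ± 0.14, adjusted p = 3.1e-05). MYCN was not an extreme among all genes: 6.72% of tested genes in shAMB and 5.46% in the xenografts had a log2 fold change as high or higher.

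MYCNOS is annotated as a long non-coding RNA and is read from the opposite strand of the MYCN locus. It stood at 21.1, 25.2 and 26.2 CPM in EV with DMSO and at 27.2, 29.2 and 26.6 CPM with doxycycline. In sh4 it went from 30.6, 26.3 and 21.3 CPM to 52.9, 53.7 and 75.2 CPM, and in shAMB from 23.6, 24.2 and 21.1 CPM to 73.2, 83.1 and 81.7 CPM. Every hairpin library with doxycycline was above every DMSO library. The fold change was 2.32 in sh4 (log2 1.21 ± 0.14, adjusted p = 3.9e-06) and 3.45 in shAMB (log2 1.79 ± 0.14, adjusted p = 2.5e-08), and 1.14 in EV, where the groups did not overlap but the adjusted p was 0.672. The tumours held 26.1, 32.0, 31.8 and 38.9 CPM in control and 82.3, 116.9, 122.5 and 81.1 CPM in KO, a 3.13-fold difference (log2 1.64 ± 0.16, adjusted p = 4.4e-05).

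MYCNOS counts were a small and narrow share of MYCN counts. The share was 1.10% ± 0.11 (SD, n = 3) in EV with DMSO, 1.20% ± 0.03 in EV with doxycycline, 1.08% ± 0.09 in shAMB with DMSO and 1.26% ± 0.03 in shAMB with doxycycline. It was 1.18% ± 0.14 in sh4 with DMSO and 1.71% ± 0.11 with doxycycline, where the 3 libraries lay between 1.63% and 1.84%, above every other library of the series. Control and KO tumours held 1.25% ± 0.22 and 1.40% ± 0.09 (n = 4) and overlapped. In 7 of the 18 culture libraries the expected count of MYCN was not whole, and in all 7 its sum with the MYCNOS count was whole to within 0.01. The decimals there were 0.77 to 0.79 for MYCN and 0.21 to 0.23 for MYCNOS. Some reads were thus divided between the genes in these libraries, and their number was not tested. No tumour library had a fractional MYCN count. The part of reads from the MYCN strand in the MYCNOS counts was not tested.

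**Figure D2:**
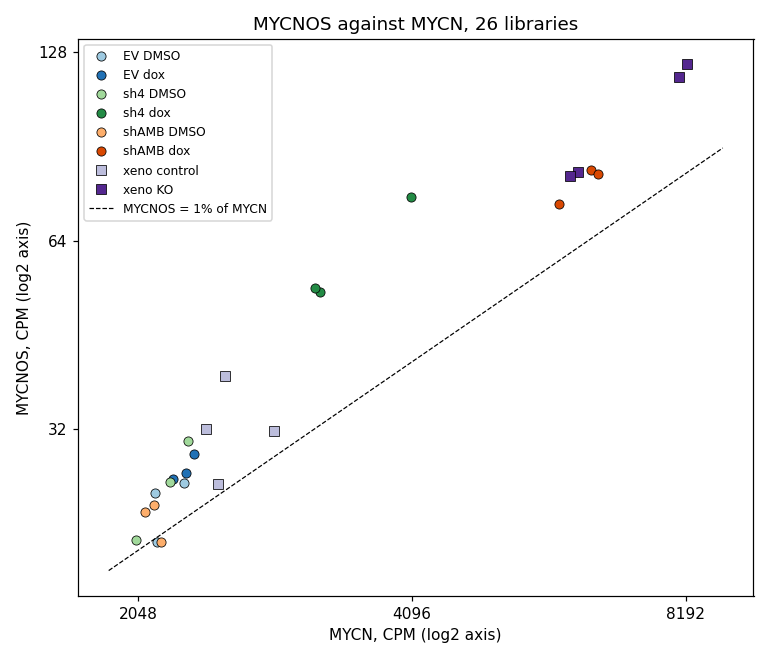
MYCNOS against MYCN in the 26 libraries, both in CPM on log2 axes, circles for culture and squares for tumours, with a dashed line where MYCNOS would be 1% of MYCN. The points run along the line at 0.974% to 1.53% outside sh4 with doxycycline, and the 3 sh4 libraries with doxycycline lie highest above it, at 1.63% to 1.84%.

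Beside MYCNOS, the closest tested transcripts are the non-coding MYCNUT, 4532 bases from MYCN on the telomeric side, and GACAT3, 0.103 Mb away on the centromeric side, a long non-coding RNA that was named after its values had been seen. GACAT3 had low counts, 20 to 134 in culture and 134 to 867 in the tumours. It was 0.96, 0.65 and 1.07 CPM in shAMB with DMSO and 2.53, 2.34 and 2.56 CPM with doxycycline (log2 1.47 ± 0.20, adjusted p = 8.6e-06), and 3.63, 3.03, 3.96 and 6.32 CPM in control tumours against 7.98, 14.2, 13.5 and 9.55 CPM in KO tumours (log2 1.41 ± 0.26, adjusted p = 0.00148). In sh4 the log2 change was 0.74 ± 0.23 (adjusted p = 0.0164), from a DMSO level that lay below that of EV (log2 difference -1.40 ± 0.22, adjusted p = 0.00352). In EV the GACAT3 change was -0.11 (adjusted p = 0.79). Its shAMB effect differed from the EV effect by 1.58 ± 0.28 (adjusted p = 0.000297). The sh4 effect differed by 0.86 ± 0.31 (adjusted p = 0.0428), a call kept in 7 of 19 alternatives. MYCNUT had 1 to 21 counts in culture, and it passed in shAMB (log2 1.87 ± 0.66, adjusted p = 0.0108) but not in sh4 (adjusted p = 0.07). In EV it was also higher with doxycycline, without overlap (log2 0.80 ± 0.62, adjusted p = 0.672). It was not called for the shAMB effect minus the EV effect (log2 1.07 ± 0.90, adjusted p = 0.333, 0 of 18 alternatives). In the tumours it was 0.299, 0.226, 0.215 and 4.30 CPM in control and 0.506, 1.72, 1.53 and 1.85 CPM in KO, so that 1 control tumour stood above all others and the adjusted p was 0.923, which became 0.00326 with log2 2.49 without that tumour.

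DDX1, which encodes a DEAD-box helicase and lies nearest to MYCN among the coding genes of the telomeric side, did not pass the test in culture, where MYCN rose in both hairpin lines. It stood at 642, 599 and 562 CPM in EV with DMSO and at 561, 558 and 578 CPM with doxycycline. It was 506, 549 and 571 CPM in sh4 with DMSO and 589.9, 539 and 483 CPM with doxycycline, and 656, 676 and 629.9 CPM in shAMB with DMSO and 674, 650.0 and 591 CPM with doxycycline. All these pairs of groups overlapped. The log2 fold changes were -0.09 in EV, -0.01 ± 0.07 in sh4 (95% interval -0.16 to 0.14) and -0.03 ± 0.07 in shAMB (-0.19 to 0.12), with adjusted p of 0.672, 0.914 and 0.68. The upper bounds are far under the change of MYCN, whose own intervals began at 0.51 in sh4 and 1.40 in shAMB. In the tumours DDX1 was 454, 331, 393 and 377 CPM in control and 415, 479.6, 513 and 517 CPM in KO. The groups overlapped through 1 KO tumour, and the log2 difference of 0.31 ± 0.11 just missed the threshold (adjusted p = 0.0513), which it passed in DESeq2 (adjusted p = 0.0433) and limma voom (0.0438). After removal of GC and length trends, DDX1 took small changes of opposite sign in the lines, -0.14 in sh4 and 0.13 in shAMB, which both passed the test.

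NBAS, next to DDX1 and read from the minus strand, acts in vesicle tethering and in nonsense-mediated decay. It was 103, 107 and 112 CPM in sh4 with DMSO and 118, 122 and 107 CPM with doxycycline, and 115, 124 and 114 CPM in shAMB with DMSO and 120.0, 119 and 115 CPM with doxycycline. The groups overlapped in every comparison. The log2 fold change was 0.11 ± 0.05 in sh4 (adjusted p = 0.102), 0.01 ± 0.05 in shAMB (adjusted p = 0.931) and -0.01 in EV. Without 1 library, sh4 with doxycycline replicate 3, the sh4 value was 0.17 and passed (adjusted p = 0.013). Control tumours held 323, 268, 279 and 267 CPM and KO tumours 266, 294, 288 and 293 CPM, a log2 difference of 0.01 ± 0.09. NBAS was thus at 102.7 to 124 CPM in all culture libraries and at 266 to 323 CPM in all tumours, levels from tables normalized apart and set side by side without a test. The part of mouse host reads in the tumour levels was not tested.

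FAM49A, the nearest coding gene on the centromeric side, was the member that went most clearly against MYCN. It fell from 16.3, 17.3 and 18.2 CPM to 9.05, 9.30 and 9.07 CPM in shAMB, with no overlap (log2 -0.92 ± 0.09, adjusted p = 1.9e-07). In the tumours it was 52.1, 45.8, 48.4 and 69.8 CPM in control and 19.0, 30.0, 27.5 and 27.9 CPM in KO, also without overlap (log2 -1.05 ± 0.17, adjusted p = 0.00064). Its product restrains RAC1 signalling to the actin cytoskeleton. In sh4 it was 13.0, 14.7 and 15.3 CPM with DMSO and 13.7, 12.1 and 10.7 CPM with doxycycline, groups that overlapped. That smaller change of -0.24 ± 0.09 passed (adjusted p = 0.035) but was lost in 6 of 13 alternatives, among them when sh4 was fitted without the other lines (adjusted p = 0.204) and without any 1 of sh4 DMSO replicates 2 and 3 or sh4 doxycycline replicates 2 and 3 (adjusted p = 0.089 to 0.122). In EV it was 18.4, 17.4 and 16.8 CPM with DMSO and 14.9, 15.04 and 15.2 CPM with doxycycline, which did not overlap, and its log2 change of -0.22 did not pass (adjusted p = 0.672). The sh4 effect minus the EV effect on FAM49A was -0.02 ± 0.12 (adjusted p = 0.916, 95% interval -0.28 to 0.24), so that no fall in sh4 beyond that in EV was detected.

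**Figure D3:**
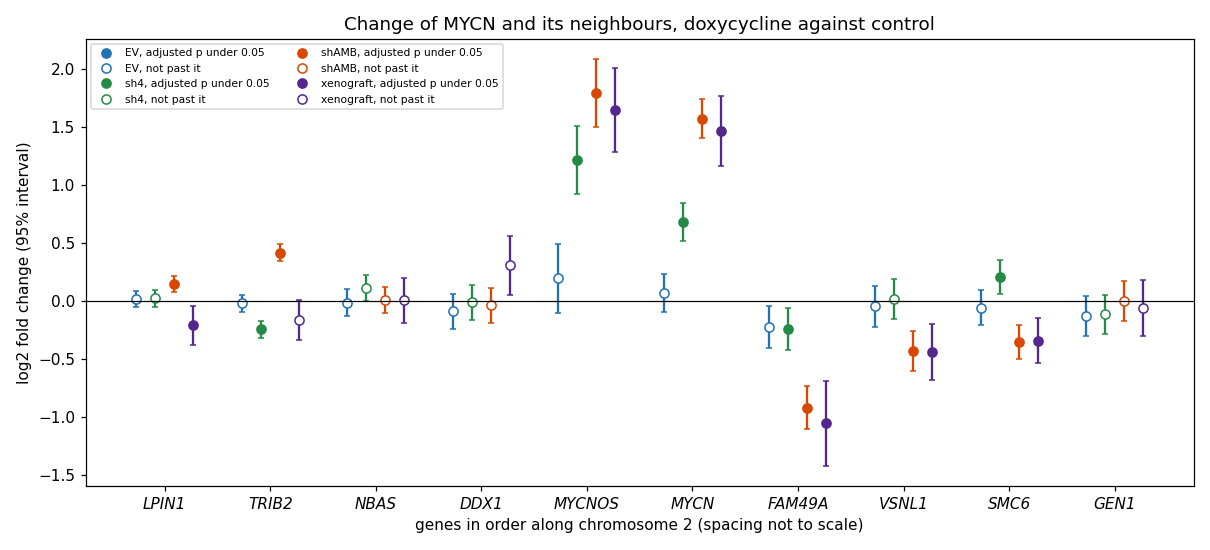
Log2 fold changes with 95% intervals from edgeR for MYCN and the 9 neighbours, in their order along chromosome 2, doxycycline against DMSO for EV, sh4 and shAMB and KO against control for the xenografts. Filled points passed an adjusted p of 0.05. The filled points far above 0 belong to MYCN and MYCNOS, and the lowest belong to FAM49A, at -0.92 and -1.05.

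TRIB2 and LPIN1 lie farthest from MYCN. TRIB2 encodes a pseudokinase scaffold that brings target proteins to a ubiquitin ligase, and it changed in opposite directions in the hairpin lines. It fell from 206, 200.4 and 199 CPM to 171, 169 and 173 CPM in sh4 (log2 -0.24 ± 0.03, adjusted p = 2.8e-05) and rose from 198, 186 and 197 CPM to 254, 260.3 and 259 CPM in shAMB (log2 0.42 ± 0.03, adjusted p = 3.3e-08). Neither pair of groups overlapped. The EV libraries lay between 204 and 213 CPM with either treatment (log2 -0.02, adjusted p = 0.771), and the tumours at 145, 137, 145 and 152 CPM in control and 119, 136, 137 and 126 CPM in KO (log2 -0.16 ± 0.08, adjusted p = 0.124). Both calls of TRIB2 in culture were kept in 13 of 13 alternatives.

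LPIN1 showed only small differences, of at most 0.21 on the log2 scale in the 4 comparisons. It was 147, 143 and 146 CPM in shAMB with DMSO and 159, 160.0 and 163 CPM with doxycycline (log2 0.15 ± 0.03, adjusted p = 0.00137), a call that was lost with RLE size factors (log2 0.07, adjusted p = 0.121) and in DESeq2 (adjusted p = 0.0963). In the tumours it was 167, 165, 164 and 179 CPM in control and 136, 152, 152 and 143 CPM in KO (log2 -0.21 ± 0.08, adjusted p = 0.0471), and this call was kept in 6 of 14 alternatives. The directions in shAMB and in the tumours were opposite. In sh4 and EV the log2 fold changes were 0.02 and 0.02, with adjusted p of 0.617 and 0.804.

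VSNL1, which encodes a calcium sensor of neurons, was, like FAM49A, scarce in culture. It fell from 12.2, 11.8 and 12.6 CPM to 9.92, 8.95 and 8.22 CPM in shAMB (log2 -0.43 ± 0.08, adjusted p = 0.000232). The tumours held 26.3, 22.1, 24.2 and 22.5 CPM in control and 15.5, 17.3, 18.2 and 19.4 CPM in KO (log2 -0.44 ± 0.11, adjusted p = 0.00865). Neither pair of groups overlapped. In sh4 the log2 fold change was 0.02 ± 0.08 (adjusted p = 0.866) and in EV -0.05 (adjusted p = 0.789). The shAMB line held more VSNL1 than EV before induction, 12.2 against 9.74 CPM, with an adjusted p of 0.0617 in edgeR and 0.0367 in DESeq2.

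SMC6 and GEN1 start beside each other and both act on damaged or joined DNA, yet their levels did not move together. SMC6 fell from 151, 157 and 146 CPM to 124, 116 and 116 CPM in shAMB (log2 -0.35 ± 0.07, adjusted p = 0.000387) and was lower in KO tumours, at 109.6, 123, 118 and 128 CPM against 167, 137, 150.2 and 151 CPM (log2 -0.34 ± 0.09, adjusted p = 0.00984). In sh4 it went from 128, 137 and 147 CPM to 171, 164 and 141 CPM, and this rise (log2 0.21 ± 0.07, adjusted p = 0.0245) was kept in 5 of 13 alternatives and lost without any 1 of sh4 DMSO replicates 1 and 2 or sh4 doxycycline replicates 1 and 2 (adjusted p = 0.0645 to 0.185). The groups overlapped in sh4 and did not in shAMB or the tumours. GEN1 passed in none of the comparisons as fitted: its log2 fold change was -0.13 for EV, -0.12 ± 0.08 for sh4, 0.00 ± 0.08 for shAMB and -0.06 ± 0.11 for the tumours, with adjusted p of 0.672, 0.271, 0.997 and 0.707. Its libraries lay between 103 and 167 CPM throughout. With GC content and length trends removed it was -0.24 for sh4 (adjusted p = 1.1e-05) and -0.18 for the tumours (adjusted p = 0.0159), and both passed.

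The ratio of SMC6 to GEN1 counts within a library needs no scaling between libraries. It was added after the changes of both genes had been seen and restates their difference, so it is a description and no further support. The log2 ratio was higher with doxycycline in sh4 by 0.33 and lower in shAMB by 0.35, each without overlap and each at the smallest p that an exact two-sided permutation test of 3 against 3 allows (p = 0.1). It was lower by 0.28 in KO than in control tumours (exact p = 0.0286, the smallest for 4 against 4).

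Counted without a test, the doxycycline and DMSO libraries did not overlap for 2 of 9 members in EV (14.1% of all tested genes did not overlap), 2 of 9 in sh4 (41.3%), 6 of 9 in shAMB (73.4%) and 5 of 9 in the xenografts (36.7%).

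The doxycycline effects were then compared between lines by interaction terms, which share the DMSO and doxycycline libraries of the lines and are not independent of each other. Against the EV effect, the sh4 effect differed in MYCNOS (log2 1.02 ± 0.20, adjusted p = 0.001), TRIB2 (-0.22 ± 0.05, adjusted p = 0.00227) and SMC6 (0.26 ± 0.10, adjusted p = 0.0499), 3 of 9 members where 32.6% of all genes were called. SMC6 was called in 3 of 19 alternatives here, and MYCN, with 0.61 ± 0.11, reached 0.95 with GC content and length trends removed. Against the EV effect, the shAMB effect differed in 6 of 9 members where 45.5% of all genes were called, with MYCNOS (1.59 ± 0.20), TRIB2 (0.44 ± 0.05) and LPIN1 (0.13 ± 0.05) higher and FAM49A (-0.70 ± 0.12), VSNL1 (-0.39 ± 0.12) and SMC6 (-0.29 ± 0.10) lower. The LPIN1 difference was called in 3 of 19 alternatives and was 0.08 in DESeq2 (adjusted p = 0.263), SMC6 was called in 14 of 19, and VSNL1 was -0.19 with GC content and length trends removed (adjusted p = 0.0692) and lost its call with the replicate number as a block (adjusted p = 0.0666). MYCN differed by 1.50 ± 0.11 in this contrast.

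The same 6 members differed between the sh4 and the shAMB effect, where 60.9% of all genes were called. The sh4 effect was the lower in MYCNOS (-0.57 ± 0.19, adjusted p = 0.0186), TRIB2 (-0.66 ± 0.05, adjusted p = 1.8e-08) and LPIN1 (-0.12 ± 0.05, adjusted p = 0.0355) and the higher in FAM49A (0.68 ± 0.12, adjusted p = 0.00021), SMC6 (0.56 ± 0.10, adjusted p = 0.000182) and VSNL1 (0.45 ± 0.11, adjusted p = 0.00318). The LPIN1 difference was called in 5 of 19 alternatives and was -0.06 in DESeq2 (adjusted p = 0.385), and VSNL1 was 0.15 with GC content and length trends removed (adjusted p = 0.133). MYCN was at -0.89 ± 0.11, and at -0.36 with these trends removed.

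DDX1, NBAS and GEN1 passed in none of the 3 contrasts as fitted, where their differences were within 0.13 on the log2 scale. With GC content and length trends removed, DDX1 passed in all 3 (-0.14 for sh4 minus EV, 0.13 for shAMB minus EV and -0.27 for sh4 minus shAMB), and GEN1 passed for sh4 minus EV (-0.20) and sh4 minus shAMB (-0.23). Without sh4 doxycycline replicate 3, NBAS passed for sh4 minus EV (0.18, adjusted p = 0.0396) and sh4 minus shAMB (0.19, adjusted p = 0.021). Before induction, 0 of 9 members differed between sh4 and EV (1.12% of all genes called) or between shAMB and EV (1.52% of all genes called). At an unadjusted p under 0.05 there were 2 and 2 members, and 4180 and 1639 of all 14905 tested genes. Limma voom called 0 and 0 members (177 and 213 of all genes). DESeq2 called 0 and 1 (351 and 294 of all genes), the latter being VSNL1.

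MYCN was next set against each neighbour within each library, which needs no scaling between libraries. In EV with DMSO 3.34, 3.57 and 4.09 MYCN counts were found per DDX1 count, and with doxycycline 4.12, 4.22 and 3.86. The ratio went from 4.59, 4.04 and 3.57 to 5.503, 5.94 and 8.46 in sh4 and from 3.18, 3.15 and 3.44 to 8.82, 9.91 and 11.1 in shAMB, and in tumours from 5.53, 7.34, 7.35 and 6.77 in control to 15.04, 16.8, 16.02 and 11.8 in KO. The hairpin and tumour groups did not overlap and the EV groups did.

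All these ratios share MYCN as numerator and are not separate results, and the change of MYCN itself enters each of them. For the 8 members other than MYCNOS the ratio was higher with doxycycline in sh4, by 0.47 to 0.92 on the log2 scale, and in shAMB, by 1.15 to 2.48, without overlap of the groups and at the smallest exact two-sided permutation p of the design (p = 0.1). In the xenografts it was higher by 1.14 (DDX1) to 2.50 (FAM49A), at the smallest exact permutation p of 0.0286. In EV the ratio was higher without overlap for 3 members, FAM49A, TRIB2 and VSNL1, by 0.29, 0.09 and 0.12. The p-values are not adjusted for the 54 ratio comparisons. The ratio of MYCN to other genes was not computed, so that these counts of members have no share over all genes beside them. For MYCNOS the ratio moved the other way, MYCN falling behind by 0.54 in sh4 and 0.22 in shAMB without overlap, and by 0.18 in the tumours with overlap (exact permutation p = 0.286).

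Levels between genes were compared per length, as CPM per kilobase of the gene length in the table. In EV with DMSO, MYCN was at 1148 ± 47 CPM per kb (SD, n = 3), a level that 0.315% of tested genes reached. DDX1 followed at 219 ± 15, TRIB2 at 64.4 ± 1.6, SMC6 at 28.5 ± 2.0, LPIN1 at 28.0 ± 0.6, GEN1 at 23.9 ± 2.4, MYCNOS at 21.3 ± 2.4, NBAS at 15.3 ± 0.7, VSNL1 at 4.86 ± 0.07 and FAM49A at 3.73 ± 0.17 CPM per kb. In this order SMC6 and LPIN1 overlapped, and GEN1 and MYCNOS overlapped, while all other neighbours in the order were apart. DDX1 was in the top 1.85% of tested genes and VSNL1 and FAM49A were below the middle, at percentiles 45.5 and 40.9.

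With doxycycline in shAMB, MYCN had the highest level per length of all 14905 tested genes, at 3306 ± 171 CPM per kb, and was 10th in sh4. MYCNOS moved from the seventh place among these 10 genes in shAMB with DMSO to the fourth with doxycycline, at 69.9 ± 4.7 CPM per kb. In control tumours the order below TRIB2 differed, since NBAS stood at 39.0 ± 3.6 CPM per kb and overlapped with TRIB2 at 44.5 ± 1.9. MYCN was 56th of 15960 tested genes in control and 7th in KO tumours.

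Of the 6 tested genes within 1 Mb of MYCN, 2 were higher and 1 lower in sh4, 3 higher and 1 lower in shAMB, and 2 higher and 1 lower in the xenografts, the higher ones being MYCNOS, GACAT3 and, in shAMB, MYCNUT, and the lower one FAM49A. Set against the EV effect, MYCNUT in shAMB and FAM49A in sh4 were not called (adjusted p = 0.333 and 0.916). GACAT3 in sh4 was called against it in 7 of 19 alternatives. Of the genes within 10 Mb that are neither MYCN nor members, GACAT3 and MYCNUT among them, 23 of 68 (33.8%) were higher and 8 (11.8%) lower in sh4, where 3410 (22.9%) of all 14905 tested genes were higher and 2681 lower. In shAMB 18 (26.5%) were higher and 26 (38.2%) lower, against 37.6% and 28.4% of all genes, and in the xenografts 12 of 75 were higher and 18 lower, against 21.2% and 19.9%. Their median log2 fold changes were 0.14, -0.02 and 0.00, while those of all tested genes were 0.00, 0.10 and 0.02.

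A list of 2p23 to 2p25 genes written from their position, MYCN and the members apart, gave 23 higher (30.3%) and 14 lower (18.4%) of 76 in sh4, 18 (23.7%) and 29 (38.2%) of 76 in shAMB and 12 (15.2%) and 22 (27.8%) of 79 in the xenografts, to be read against the same shares of all genes. The ends were taken among called genes only, after the members and all placed genes within 5 Mb of MYCN had been joined to this list. In sh4 they were RAB10 (-1.40), RNF144A (-1.35) and PTRHD1 (-1.30), and MATN3 (1.31), MYCNOS (1.21) and PXDN (1.09). The ends in shAMB were MATN3 (-1.19), PQLC3 (-1.04) and FAM49A (-0.92), and KCNF1 (2.30), MYCNUT (1.87) and MYCNOS (1.79). In the xenografts they were PQLC3 (-1.69), FAM49A (-1.05) and RRM2 (-1.03), and KCNF1 (3.04), ALLC (2.26) and MYCNOS (1.64). KCNF1, MATN3 and ALLC, and MYCNUT in shAMB, had means under 1 CPM. FAM49A and MYCNOS were the only members at these ends.

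**Figure D4:**
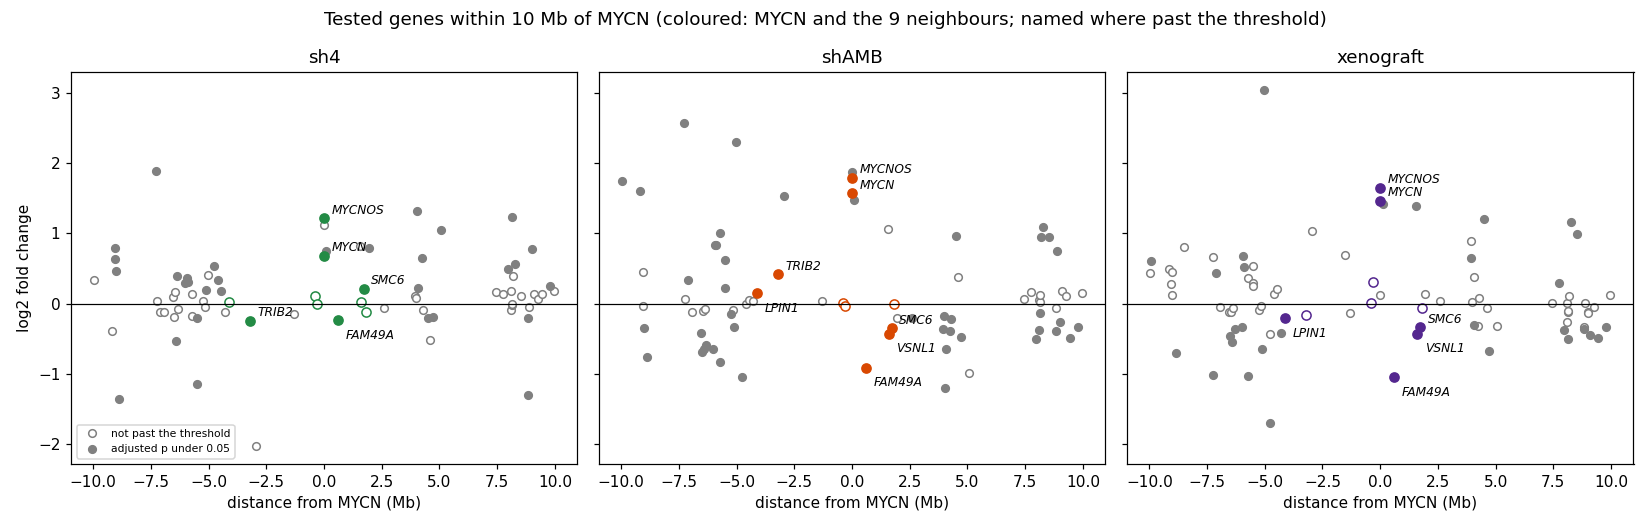
Log2 fold change of every tested gene within 10 Mb of MYCN against its distance from MYCN in Mb, negative towards the telomere, in sh4, shAMB and the xenografts. Filled points passed an adjusted p of 0.05 and coloured points are MYCN and the members. High points stand at distance 0 with MYCNOS and MYCN, DDX1 and NBAS lie near 0 a short way to the left, and FAM49A lies below 0 to the right.

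As a description over the 18 culture libraries, which share lines and treatments, log2 CPM of MYCNOS followed that of MYCN (Pearson r = 0.955, and 0.982 over the 8 tumours) and that of FAM49A opposed it (-0.94 and -0.854). DDX1 and NBAS had r of 0.11 and 0.338 with MYCN in culture and 0.753 and 0.08 in the tumours, and GEN1 -0.207 and -0.266. TRIB2 and LPIN1 changed sign, from 0.54 and 0.765 in culture to -0.642 and -0.791 in the tumours.

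The genes most like each member over the culture libraries were IGF2 (r = 0.993) and TNFAIP2 (0.988) for MYCNOS, C5orf22 (0.985) and ABCE1 (0.984) for DDX1, UBA6 (0.947) and RRAGD (0.942) for NBAS, and DPY19L1 (0.984) and SLC25A17 (0.982) for FAM49A. They were NCAM1 (0.978) and CHRM1 (0.975) for TRIB2, MYH3 (0.965) and GDF10 (0.925) for LPIN1, PKP2 (0.953) and SCG5 (0.907) for VSNL1, HS2ST1 (0.985) and OCRL (0.983) for SMC6, and HEATR1 (0.94) and EPT1 (0.933) for GEN1. None of these is another member. In the tumours the first of each pair had r of 0.245 for IGF2 with MYCNOS, 0.914 for C5orf22 with DDX1, 0.903 for UBA6 with NBAS, 0.939 for DPY19L1 with FAM49A and 0.943 for HS2ST1 with SMC6, while NCAM1 with TRIB2 (-0.559) and MYH3 with LPIN1 (-0.821) turned negative. For VSNL1 with PKP2 it was 0.747 and for GEN1 with HEATR1 0.567.

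The labelled cell type was checked on marker genes. All 15 neuroblastoma markers were detected in every group, led by CHGA, and their sum ran from 3381 to 4408 CPM in control and from 2714 to 4177 CPM in KO tumours. Of 7 stromal markers 1 was at no more than 3 counts in control and 0 in KO tumours, and their sum, 75.1 to 89.6 CPM in EV with DMSO, was 57.8 to 94.8 CPM in control and 85.7 to 129 CPM in KO tumours. The 5 endothelial markers summed to 8.69 to 14.6 CPM in control and 10.8 to 15.7 CPM in KO, the 6 immune markers, of which 2 in control and 1 in KO were at no more than 3 counts, to 1.17 to 1.58 and 1.85 to 2.75 CPM, and the 4 Schwann cell markers to 5.17 to 6.97 and 2.60 to 3.16 CPM. Immune and Schwann cell sums did not overlap between control and KO tumours. In culture, the immune sum was 0.641 to 0.776 CPM in shAMB with DMSO and 1.50 to 2.24 CPM with doxycycline, led by CD68. The Schwann cell sum in culture ran from 3.88 CPM, in shAMB with DMSO, to 5.43 CPM, in sh4 with doxycycline. Since the line alone also gave such sums, a sum does not by itself show cells of these types. The counts are of human genes, so that the sums do not measure cells of the mouse host. The part of these sums in the tumour values of the members was not tested, and in a bulk sample fewer cells of a type cannot be told apart from less RNA per cell.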

How the data were processed

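RNA was sequenced from 18 culture libraries and 8 xenograft libraries of KELLY cells, after a stranded total RNA kit, although the labels give polyA RNA. Per the labels, the submitters' processing notes name STAR, SAMtools, RSEM and hg38, without versions. No step to remove reads of the mouse host is named for the tumours, and the part of such reads was not tested. The authors deposited 4 tables: RSEM expected counts and TPM values (length-scaled levels that share one total per library), each for culture and for xenografts, made from RefSeq transcripts. Whether counting used the strand is not stated. Column names carry Neg or Pos, which were taken to mean DMSO or doxycycline by the sense of the words, with no label to define them.

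The deposited expected counts were rounded and fitted in edgeR 4.0.16 (R 4.3.3) with its quasi-likelihood F test after filterByExpr and TMM scaling, in 1 fit for culture (14905 genes tested, 9 of 9 members) and 1 for the xenografts (15960 genes, 9 of 9). P-values were adjusted by Benjamini-Hochberg over all tested genes, and 0.05 was the threshold. The estimated biological coefficient of variation, from the median of the trend over tested genes, was 0.115 in culture and 0.186 in the xenografts. Single genes can lie above or below it. For genes with many counts such variation, more than counting error, limits precision at depths of 35115915 to 62378060 counts per library. For genes with few counts, such as MYCNUT, counting error weighs more. CPM are TMM scaled, and standard errors and 95% intervals are from the same fits. Ratios within a library were compared by a two-sided exact permutation test, with 0.5 added to each count. The deposited TPM served only as an alternative, as log2(TPM + 0.1). The 30 pairs of libraries within groups were compared and none was a duplicate (chi-square per degree of freedom 1.87 to 306).

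Positions were taken for 25310 of 26485 genes, of which 23758 matched RefSeq by symbol and 1562 by synonym. Exon overlaps are from GENCODE on hg38, and promoter windows from RefSeq (GRCh38.p14), where FAM49A was not matched. All 9 members are named, with MYCN and RUNX1T1. From the neighbourhood list joined with the genes within 5 Mb of MYCN, called genes at the ends are named. These are the 3 with the lowest and the 3 with the highest log2 fold change in each of sh4, shAMB and the xenografts. The 2 genes with the highest Pearson r of log2 CPM over the culture libraries are named as most like a member. The members and lists were chosen with earlier results of these data known. Alternatives were RLE size factors, no filter on low counts, DESeq2 1.42.0, limma voom (limma 3.58.1), only the groups compared, a replicate block, a log2 change of at least 1, each library left out, deposited TPM and, added after the data had been seen, removal of GC content and length trends and the SMC6 to GEN1 ratio. The main edgeR fits were tested on simulated data, for shAMB doxycycline against DMSO and for xenograft KO against control. The alternatives and the other comparisons were not.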

Additional observations from a re-analysis of the deposited data

Results flagged for a closer look

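Among 40 sets of 4 tumour values examined (levels and ratios to MYCN), 2 had a tumour apart from the others by Dixon's test, and chance alone flags about 1 in 20 groups. LPIN1 was at 179.0 CPM in control tumour replicate 4, above the other 3 control tumours at 164 to 167 CPM. MYCNUT, the non-coding transcript next to MYCN, was at 4.30 CPM in the same tumour, against 0.215 to 0.299 CPM in the other 3. The causes were not tested.

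The doxycycline effects that differed between lines by the interaction test, all on the log2 scale, share libraries with each other. The sh4 effect minus the EV effect was 0.61 for MYCN, 1.02 for MYCNOS, -0.22 for TRIB2 and 0.26 for SMC6. The shAMB effect minus the EV effect was 1.50 for MYCN, 1.59 for MYCNOS, 0.44 for TRIB2, 0.13 for LPIN1, -0.70 for FAM49A, -0.39 for VSNL1 and -0.29 for SMC6. The sh4 effect minus the shAMB effect was -0.89 for MYCN, -0.57 for MYCNOS, -0.66 for TRIB2, -0.12 for LPIN1, 0.68 for FAM49A, 0.45 for VSNL1 and 0.56 for SMC6. The LPIN1 differences from EV and between the hairpin lines were lost in 16 and 14 of 19 alternatives. With GC content and length trends removed, the MYCN difference was 0.95 for sh4 minus EV and -0.36 for sh4 minus shAMB. TRIB2 is the member whose change was called in opposite directions in sh4 and shAMB with every alternative fit run, while SMC6 was called in opposite directions with a call in sh4 that was kept in 5 of 13 alternatives.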

How the results depend on the processing

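Of 1420 alternative log2 fold changes of MYCN and the members, 1311 were counted as kept, 85 lost the call, 20 gained one and 4 reversed with a call. Kept means the same side of the threshold, and the same direction where either value was called. A change of direction between values that both missed the threshold thus counts as kept. Deposited TPM values were judged only by the direction of called changes. MYCN and MYCNOS kept their calls in sh4, shAMB and the xenografts in every alternative fit run, apart from deposited TPM, whose exact test of 3 against 3 cannot go below p = 0.1. The 4 reversals came with GC content and length trends removed: DDX1 was 0.13 in shAMB, -0.14 for sh4 minus EV and -0.27 for sh4 minus shAMB, and GEN1 was -0.20 for sh4 minus EV. The causes were not tested.

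With a change of at least 1 on the log2 scale also asked for, the members changed were 1 in sh4, 1 in shAMB, 1 for sh4 minus EV, 1 for shAMB minus EV, 0 for sh4 minus shAMB and 2 in the xenografts, where 5.03%, 17.9%, 5.62%, 12.7%, 21.6% and 12.5% of all tested genes were called. With only the groups compared, 2 changed in sh4 (3727 of all genes called). Before induction, 3 members differed between sh4 and EV and 2 between shAMB and EV with GC content and length trends removed (814 and 870 of all genes called), where MYCN was also lower in sh4 than in EV (-0.29, adjusted p = 0.0106), and 1 between shAMB and EV in DESeq2 (294 of all genes). Leaving out 1 library gave 2 to 4 members in sh4. The lowest came without sh4 DMSO replicate 2 (2875 of all genes higher, 2170 lower) or sh4 doxycycline replicate 2 (2782 and 2127). The highest came without sh4 doxycycline replicate 3 (3968 and 4082). The members whose ratio to MYCN did not overlap were 3 to 8 in EV, the highest without EV DMSO replicate 3, 0 to 5 for sh4 against EV under DMSO, the highest without sh4 DMSO replicate 3, and 1 to 4 for shAMB against EV under DMSO, the highest without EV DMSO replicate 1. MYCN itself enters each ratio and its ratio to other genes was not computed, so that these counts are no result about the neighbours.

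Replicate numbers did not pair the samples, since same-numbered samples of treated and control groups correlated between -0.60 and 0.37 in their deviations from group means. Samples of these groups with different numbers correlated between -0.56 and 0.60, so that libraries did share variation across groups. The highest values were for sh4 DMSO replicate 1 with sh4 doxycycline replicate 3 and for control tumour 1 with KO tumour 4. The cause was not tested. With the replicate number as a block, 2 members changed in sh4, 3 for shAMB minus EV and 3 in the xenografts, with 4366, 5054 and 4929 of all genes called. The call of MYCNOS for sh4 minus shAMB was lost with the block (adjusted p = 0.0673 in edgeR) and without sh4 DMSO replicate 1 or sh4 doxycycline replicate 1 or 2. The LPIN1 calls, of 0.15 in shAMB and -0.21 in the xenografts, were kept in 9 of 13 and 6 of 14 alternatives.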
